A study of Mus musculus with 18 samples.

Results

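The genes described here are the Toll-like receptor genes Tlr1 to Tlr9 and Cd14, the co-receptor that hands LPS to TLR4. They were taken as the array probes whose gene symbol was one of these names, which gave 20 of the 33026 probes with a symbol and 10 of the 22485 genes. Tlr2 had 10 probes, Tlr7 had 2 and each of the other 8 genes had 1. The samples were bone marrow derived macrophages of 8- to 10-week-old mice, grown for 7 days with M-CSF (10 ng/ml), which turns marrow precursors into macrophages. In the first group, Nrf2-/- cells had heme-albumin complexes (200 µM heme, 4 h) and then LPS for 4 h (n = 5), and in the second group Nrf2+/+ cells had the same (n = 3). By their labels, Nrf2-/- cells had LPS alone for 4 h (n = 4) and Nrf2+/+ cells had LPS alone for 4 h (n = 3). Nrf2+/+ cells had albumin without heme for 4 h (n = 3). LPS, the endotoxin of Gram-negative bacteria, was used at 10 ng/ml, and heme is the iron-bearing group of hemoglobin. NRF2, which Nrf2-/- cells lack, is the transcription factor that switches on antioxidant genes.

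Toll-like receptors are membrane proteins that recognise molecules of microbes and start inflammatory signalling. TLR2 pairs with TLR1 or TLR6 at the cell surface and binds bacterial lipoproteins, TLR4 with MD-2 and CD14 binds LPS, and TLR5 binds flagellin. TLR3, TLR7, TLR8 and TLR9 sit in endosomes and bind nucleic acids: double-stranded RNA for TLR3, single-stranded RNA for TLR7 and TLR8, and unmethylated CpG DNA for TLR9. Most of these receptors signal through the adaptor MyD88 to the transcription factor NF-kB, while TLR3 uses the adaptor TRIF and TLR4 uses both.

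The promoters of the 4 receptors whose mRNA passed the test (limma, adjusted p under 0.05) in at least 3 of the 7 comparisons are shown. All 4 rose with LPS and were lower again with heme before LPS in Nrf2+/+ cells. The rise and the fall share the arrays with LPS alone, so they are not separate observations. The promoters are RefSeq sequences of build GRCm38.p6, 250 bases before to 50 bases after an annotated start, printed 5′ to 3′ on the gene's strand. Capitals mark matches to the motif of NF-kB, to that of interferon-stimulated genes (ISRE, GAAANNGAAA) or to that of the macrophage factor PU.1 (GGAAGT), on either strand. The windows are chr3:83841559-83841858 (minus strand) for Tlr2, chr8:45410331-45410630 (minus strand) for Tlr3, chr5:64933509-64933808 (minus strand) for Tlr1 and chr5:64959117-64959416 (minus strand) for Tlr6. Tlr1 and Tlr6 each have a second annotated promoter, not printed. That of Tlr6 (chr5:64959999-64960298) lies upstream of the printed window. On the minus strand the annotated genes begin at bases 83841824 (Tlr2), 45411075 (Tlr3), 64933600 (Tlr1) and 64970942 (Tlr6). The Tlr3 and Tlr6 windows thus lie wholly inside the annotated genes, at internal starts. The Tlr2 and Tlr1 windows reach past the first base of their genes. Most of the Tlr2 window, with all its marked matches, still lies inside the annotated gene. So does the part of the Tlr1 window that holds its marked match.
Tlr2: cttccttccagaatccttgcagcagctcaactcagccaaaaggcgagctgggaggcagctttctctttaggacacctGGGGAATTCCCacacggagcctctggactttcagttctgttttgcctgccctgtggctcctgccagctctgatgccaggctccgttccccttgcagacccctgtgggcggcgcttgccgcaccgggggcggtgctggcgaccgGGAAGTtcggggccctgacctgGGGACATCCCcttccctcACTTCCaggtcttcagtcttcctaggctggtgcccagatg
Tlr3: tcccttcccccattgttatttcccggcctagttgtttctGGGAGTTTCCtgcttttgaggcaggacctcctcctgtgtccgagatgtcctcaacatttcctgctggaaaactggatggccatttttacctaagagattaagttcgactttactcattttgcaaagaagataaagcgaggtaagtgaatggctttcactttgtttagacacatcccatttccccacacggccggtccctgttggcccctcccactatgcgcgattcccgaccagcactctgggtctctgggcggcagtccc
Tlr1: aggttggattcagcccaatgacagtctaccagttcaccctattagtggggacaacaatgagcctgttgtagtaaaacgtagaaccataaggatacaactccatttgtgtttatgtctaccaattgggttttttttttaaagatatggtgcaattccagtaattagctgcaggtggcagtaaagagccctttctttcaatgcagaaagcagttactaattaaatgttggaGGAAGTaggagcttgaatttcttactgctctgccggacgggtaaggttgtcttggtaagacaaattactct
Tlr6: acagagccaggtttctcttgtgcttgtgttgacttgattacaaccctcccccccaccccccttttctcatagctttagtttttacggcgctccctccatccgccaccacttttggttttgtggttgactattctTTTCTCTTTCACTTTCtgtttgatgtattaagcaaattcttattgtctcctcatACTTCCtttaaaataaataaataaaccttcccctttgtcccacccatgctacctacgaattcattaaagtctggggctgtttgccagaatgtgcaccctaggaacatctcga

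The Tlr2 window held NF-kB matches at bases 78 to 88, where 2 overlapping matches make 1 run, and at bases 243 to 252, and PU.1 matches that begin at bases 221 and 261. The Tlr3 window held 1 NF-kB match, at bases 40 to 49. The Tlr6 window held 2 overlapping ISRE matches between bases 135 and 150 and a PU.1 match at base 189, and the Tlr1 window held a PU.1 match at base 230. Of 32851 RefSeq promoters of the same length, 8.46% held the NF-kB motif, 3.44% the ISRE motif and 23.8% the PU.1 motif. The antioxidant element bound by NRF2 (TGACNNNGC), in 12.4% of promoters, and the AP-1 motif (TGANTCA), in 7.81%, were also searched. Neither had a match in the 4 windows shown, and the Tlr9 promoter had 1 of each. Promoters were given for 7 of the 10 genes, 9 promoters in all, and Tlr4, Tlr7 and Cd14 had none. A match describes these letters only.

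Every value below is a log2 ratio of a sample to an untreated macrophage reference hybridised to the same array, so a value of 0 means equality with the reference and the values show no absolute level. The LPS arrays' labels name no albumin, while the treatment protocol speaks of albumin or heme-albumin before LPS. Whether the cells with LPS alone had albumin first is not known. The albumin arrays had no LPS and 4 h in all, and the heme arrays had 8 h in all. Albumin and time in culture therefore cannot be told apart from the treatments. Nrf2-/- cells have no group without LPS, and no label gives the genotype of the reference. As a check of the labels, Nfe2l2, the gene that encodes NRF2, was listed at exactly 0 on all 9 Nrf2-/- arrays. It was also at 0 on 2 of the 3 albumin arrays of Nrf2+/+ cells, so a 0 does not by itself show a missing transcript. The share of features listed at exactly 0 ran from 17.9% to 48.8% over the arrays, with 44.3% to 48.8% in the 4 LPS-treated arrays that carry the letter a. The files do not say how such a 0 arose. Of the receptor genes, Tlr5 was listed at 0 on 5 of the 18 arrays and Tlr8 on 7, and the other 8 genes on none.

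**Figure D1:**
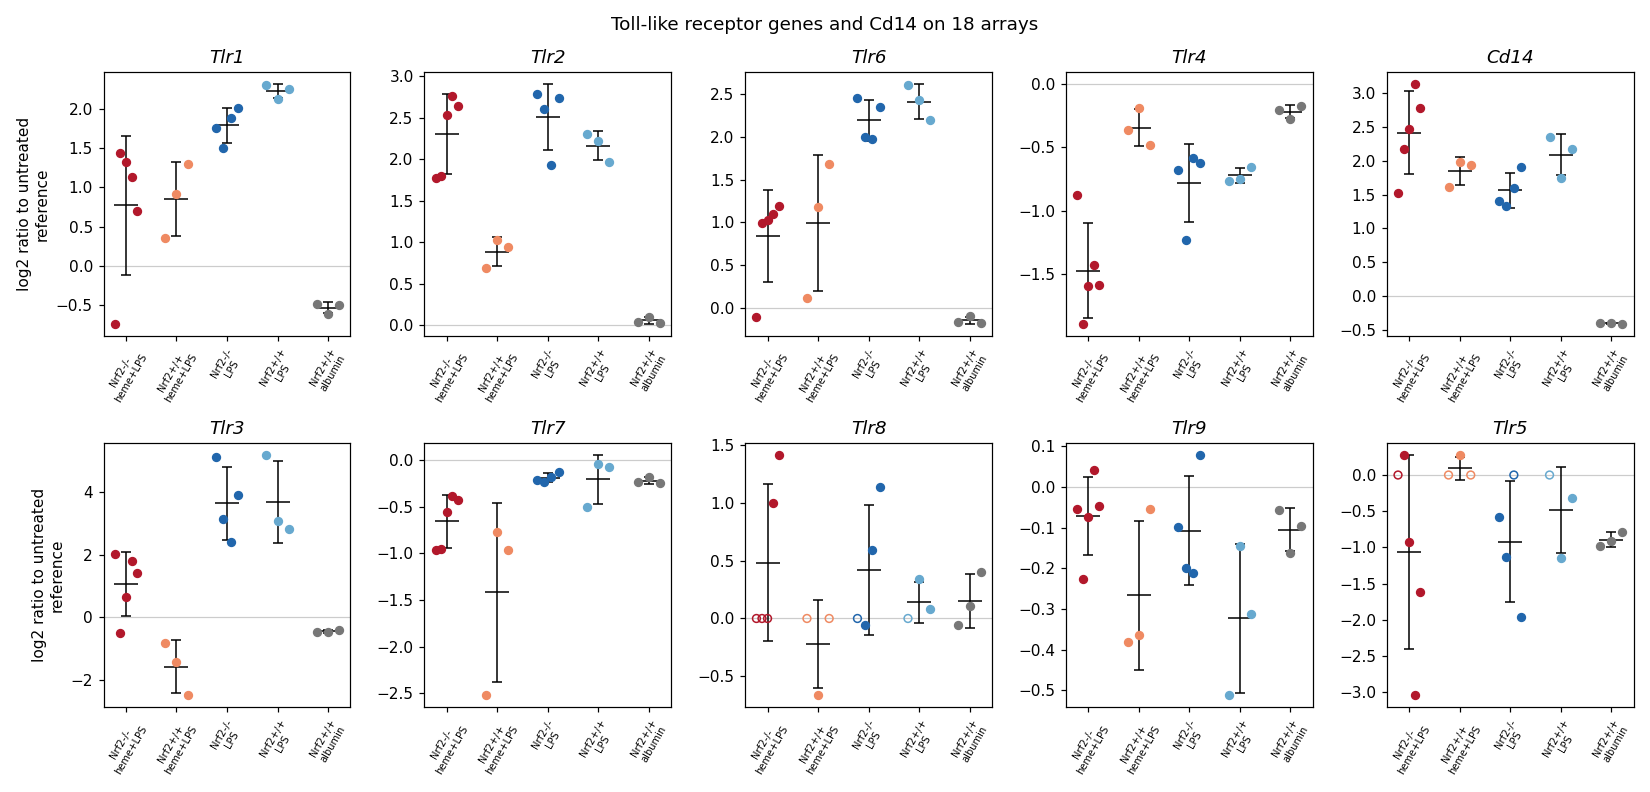
The log2 ratio to the untreated reference (vertical axis, a separate scale in each panel) of the 10 genes on each of the 18 arrays, by group, with the mean and SD of each group as lines and with open circles for values listed at exactly 0. Tlr1, Tlr2, Tlr3, Tlr6 and Cd14 stand higher in every array with LPS alone than in every albumin array, and Tlr5 and Tlr8 hold all the open circles.

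LPS alone raised the mRNA of the lipoprotein receptors, the double-stranded RNA receptor and the LPS co-receptor in Nrf2+/+ cells. Against albumin, 5 of the 10 genes passed the test (Tlr1, Tlr2, Tlr3, Tlr6 and Cd14), all of them higher, and none was called lower. Over all 22485 genes 28.6% were called in this comparison, 12.3% higher and 16.3% lower (limma, adjusted p under 0.05). The median difference of the 10 genes was 1.26 on the log2 scale, beside 0 over all genes. The median log2 ratio was 0 on every array, with many features listed at exactly 0. The all-gene 0 is therefore no informative baseline. In these bulk samples, fewer cells that carry a transcript and less of it per cell cannot be told apart.

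Tlr3 had log2 ratios of 5.19, 3.08 and 2.82 in Nrf2+/+ cells under LPS, against -0.46, -0.47 and -0.39 under albumin. All 3 LPS arrays stood far above the albumin arrays and spanned over 2 log2 units among themselves. The difference was 4.13 ± 0.78 (SE), a 17.6-fold rise with an adjusted p of 0.00107 by limma.

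Tlr1 had log2 ratios of 2.30, 2.13 and 2.25 in Nrf2+/+ cells under LPS, against -0.49, -0.61 and -0.50 under albumin. Its partner in sequence and position, Tlr6, had 2.62, 2.43 and 2.20 under LPS, against -0.17, -0.10 and -0.18 under albumin. The groups did not overlap for either gene, and the differences were 2.76 ± 0.42 (SE) for Tlr1 and 2.57 ± 0.36 for Tlr6, with limma adjusted p of 0.000197 and 9.14e-05.

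Tlr2, the partner of both in ligand binding, had log2 ratios of 2.31, 2.22 and 1.97 in Nrf2+/+ cells under LPS, against 0.04, 0.10 and 0.03 under albumin. The rise was 2.11 ± 0.27 (SE), or 4.31-fold (limma adjusted p = 4.26e-05). The 10 Tlr2 probes differed from each other by no more than 0.179 log2 units on any array.

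Cd14 had log2 ratios of 2.35, 1.75 and 2.18 in Nrf2+/+ cells under LPS, against -0.41, -0.40 and -0.41 under albumin. The difference was 2.50 ± 0.31 (SE), or 5.64-fold (limma adjusted p = 3.09e-05), with no overlap between the groups. These 5 rises kept their call under each of the 14 alternative settings and left-out arrays tried for them.

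Tlr4, the LPS receptor itself, had log2 ratios of -0.76, -0.75 and -0.65 in Nrf2+/+ cells under LPS, against -0.21, -0.28 and -0.17 under albumin. Each LPS array was below each albumin array, but the difference of -0.50 ± 0.21 (SE) did not pass (limma adjusted p = 0.0915). In a fit on these 2 groups alone it passed. Tlr7, Tlr8 and Tlr9 had differences of 0.01, -0.01 and -0.22, and Tlr5 had 0.40 with an SE of 0.69, and none of the 4 passed. The 95% interval for Tlr7 ran from -0.70 to 0.73, and that for Tlr5 from -1.07 to 1.88, so changes of those sizes were not detectable with 3 arrays a group.

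**Figure D2:**
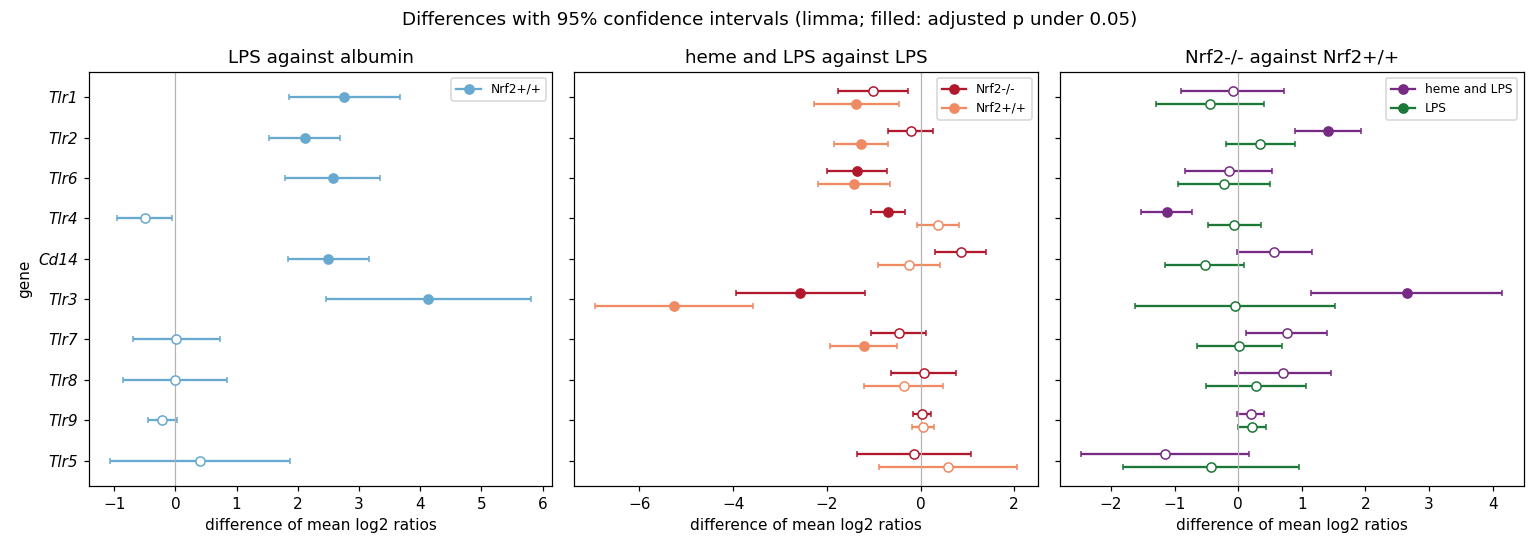
Differences of mean log2 ratios (horizontal axis) of the 10 genes with 95% confidence intervals of the limma fit, for LPS against albumin in Nrf2+/+ cells (left), heme and LPS against LPS in both genotypes (centre) and Nrf2-/- against Nrf2+/+ cells under both treatments (right); filled points passed an adjusted p of 0.05. Under heme and LPS against LPS Tlr3 has the lowest point, -5.26 in Nrf2+/+ cells, and the right panel has 3 filled points, all under heme and LPS.

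Heme before LPS lowered 5 of the 10 genes in Nrf2+/+ cells relative to LPS alone: Tlr1, Tlr2, Tlr3, Tlr6 and Tlr7. Over all genes 14.7% were called, 6.35% lower and 8.34% higher. This comparison and LPS against albumin share the Nrf2+/+ LPS arrays, so an error in those arrays moves the differences in opposite directions. The median difference of the 10 genes was -0.79 on the log2 scale, beside the all-gene 0, which is no informative baseline here either. Tlr4, Tlr5, Tlr8, Tlr9 and Cd14 did not pass. Tlr2 and Tlr3 are the genes of this set that also passed in a fit on these 2 groups alone.

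Tlr3 had log2 ratios of -0.81, -1.42 and -2.48 in Nrf2+/+ cells under heme and LPS, against 5.19, 3.08 and 2.82 under LPS. The difference was -5.26 ± 0.78 (SE), 38.3-fold lower (limma adjusted p = 0.000328). All 3 arrays under heme and LPS were also below the 3 albumin arrays, a difference of -1.13 ± 0.78 that did not pass (adjusted p = 0.328).

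Tlr2 had log2 ratios of 0.69, 1.03 and 0.94 in Nrf2+/+ cells under heme and LPS, against 2.31, 2.22 and 1.97 under LPS. It was 2.43-fold lower, by -1.28 ± 0.27 on the log2 scale (limma adjusted p = 0.00444), and the groups did not overlap. Relative to albumin it was still higher by 0.83 ± 0.27 (adjusted p = 0.0335).

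Tlr1 had log2 ratios of 0.36, 0.92 and 1.29 in Nrf2+/+ cells under heme and LPS, against 2.30, 2.13 and 2.25 under LPS. Tlr6 had 0.11, 1.18 and 1.68 under heme and LPS, against 2.62, 2.43 and 2.20 under LPS. Array a was the lowest of the heme arrays for both genes and for Tlr2. The differences were -1.37 ± 0.42 (SE, limma adjusted p = 0.0423) for Tlr1 and -1.42 ± 0.36 (adjusted p = 0.0138) for Tlr6. The Tlr1 call was lost when heme array a or b or LPS array a, b or c was left out, and the Tlr6 call when array a of either group was. Without these single arrays the Tlr1 adjusted p reached 0.157 and the Tlr6 one 0.0596. Without all 4 LPS-treated arrays lettered a the Tlr6 difference was -0.88 and passed. Neither Tlr1 (adjusted p = 0.202) nor Tlr6 (0.0984) passed with quantile normalization, nor in a fit on the 2 groups alone (0.0533 for Tlr1 and 0.166 for Tlr6).

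Tlr7, the single-stranded RNA receptor, had log2 ratios of -2.52, -0.78 and -0.96 in Nrf2+/+ cells under heme and LPS, against -0.51, -0.05 and -0.07 under LPS. Array a was the lowest in both groups, and no heme array reached the LPS arrays. The difference was -1.21 ± 0.33 (SE, limma adjusted p = 0.0225), and it was lost without LPS array b or LPS array c (adjusted p up to 0.0804). Without heme array a it was -0.66 and passed (adjusted p = 0.0265), and in the fit on the 2 groups alone it did not pass (0.321). Relative to albumin Tlr7 was lower by -1.20 ± 0.33 (adjusted p = 0.0145), which was -0.65 without heme array a (0.0186) and did not pass in a fit on those 2 groups alone (0.174). The 2 Tlr7 probes differed by at most 0.504 log2 units on an array.

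The LPS receptor genes themselves did not pass in this comparison. Cd14 had log2 ratios of 1.62, 1.99 and 1.95 in Nrf2+/+ cells under heme and LPS, against 2.35, 1.75 and 2.18 under LPS, and the ranges overlapped. Its difference was -0.24 ± 0.31 (SE), with a 95% interval from -0.90 to 0.42. Tlr4 had -0.36, -0.19 and -0.48 under heme and LPS, against -0.76, -0.75 and -0.65 under LPS. The heme arrays lay above the LPS arrays for Tlr4, but the difference of 0.37 ± 0.21 did not pass (limma adjusted p = 0.331).

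With both agents, set against albumin, Nrf2+/+ cells had 5 called genes, where 27.3% of all genes were called, 12.9% higher and 14.4% lower. Tlr1 (1.39 ± 0.42, SE), Tlr2, Tlr6 (1.14 ± 0.36) and Cd14 (2.26 ± 0.31) were higher and Tlr7 was lower (limma adjusted p of 0.024 for Tlr1, 0.0284 for Tlr6 and 9.15e-05 for Cd14). This comparison shares its arrays with the 2 before it. The calls of Tlr1, Tlr2 and Tlr6 were each lost without any 1 of the albumin arrays or without heme array b or c, with adjusted p up to 0.131. A fit on the 2 groups alone called Tlr1, Tlr2, Tlr5 and Cd14: it lost Tlr6 (adjusted p = 0.13) and Tlr7 and gained Tlr5 (0.98 higher, adjusted p = 0.00389). Tlr5 was listed at exactly 0 on 2 of the 3 Nrf2+/+ arrays under heme and LPS, and the other was at 0.27. The gained Tlr5 call thus rests on these zeros, and with exact 0 as missing it could not be tested. Cd14 kept its call under every alternative tried.

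In Nrf2-/- cells, heme before LPS lowered Tlr3, Tlr4 and Tlr6 relative to LPS alone, 3 of the 10 genes, where 6.77% of all genes were called, 2.67% lower and 4.1% higher. The median difference of the 10 genes was -0.34 on the log2 scale, beside the all-gene 0, which is no informative baseline here either. Tlr2, which fell in Nrf2+/+ cells, differed by -0.21 ± 0.22 (SE) in Nrf2-/- cells, with a 95% interval from -0.69 to 0.27.

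Tlr6 had log2 ratios of -0.11, 0.99, 1.02, 1.09 and 1.20 in Nrf2-/- cells under heme and LPS, against 2.46, 2.00, 1.98 and 2.35 under LPS. The groups did not overlap, and the difference was -1.36 ± 0.30 (SE, limma adjusted p = 0.0121), which did not pass with quantile normalization (0.0534). Tlr1 had -0.73, 1.44, 1.32, 1.13 and 0.70 under heme and LPS, against 1.75, 1.50, 1.88 and 2.01 under LPS. The Tlr1 arrays did not overlap either, but the difference of -1.02 ± 0.35 did not pass (adjusted p = 0.111). Array a under heme and LPS was the lowest of its group for both genes, and without it the Tlr1 difference was -0.64 (adjusted p = 0.0628).

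Tlr3 had log2 ratios of 2.03, -0.48, 0.65, 1.79 and 1.42 in Nrf2-/- cells under heme and LPS, against 5.12, 3.13, 2.42 and 3.91 under LPS. The highest heme array stayed below the lowest LPS array. The difference was -2.56 ± 0.64 (SE, limma adjusted p = 0.0268), a call that was lost without heme array b or c or LPS array a or d (adjusted p up to 0.101) and in a fit on the 2 groups alone (0.105).

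Tlr4 had log2 ratios of -0.87, -1.89, -1.59, -1.43 and -1.58 in Nrf2-/- cells under heme and LPS, against -0.68, -1.23, -0.59 and -0.62 under LPS. The ranges overlapped through array a under heme and array b under LPS. The difference was -0.69 ± 0.17 (SE, limma adjusted p = 0.0251), and the call was lost without heme array b, c or e or LPS array a, c or d, with adjusted p up to 0.0815. The Tlr4 call was also lost with the replicate letter as a block (adjusted p = 0.051), with quantile normalization (0.128) and in a fit on the 2 groups alone (0.174).

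Cd14 had log2 ratios of 1.53, 2.17, 2.47, 3.14 and 2.78 in Nrf2-/- cells under heme and LPS, against 1.41, 1.34, 1.60 and 1.91 under LPS. In 4 of the 5 heme arrays it was above all LPS arrays. The difference of 0.86 ± 0.25 (SE) did not pass (limma adjusted p = 0.0593). Without array a of the heme group it was larger and passed, with an adjusted p of 0.00499, and without the 4 LPS-treated arrays lettered a it passed with 0.0171. It also passed with all arrays under quantile normalization (adjusted p = 0.011), with exact 0 as missing (0.0428), with a filter for genes not at 0 on at least 9 arrays (0.0425) and with the replicate letter as a block (0.0371). Leaving out the 4 arrays lettered a otherwise kept every called gene of every comparison.

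Tlr7 had log2 ratios of -0.97, -0.95, -0.56, -0.38 and -0.43 in Nrf2-/- cells under heme and LPS, against -0.22, -0.23, -0.18 and -0.13 under LPS. No array of the heme group reached the LPS group, but the difference of -0.47 ± 0.27 (SE) did not pass (limma adjusted p = 0.448). The spread that the fit uses for Tlr7 is shared by all groups and includes the SD of 0.96 among the Nrf2+/+ arrays under heme and LPS, against 0.28 and 0.05 among the Nrf2-/- arrays under heme and LPS and under LPS. In a fit on the 2 Nrf2-/- groups alone it did not pass either (adjusted p = 0.144).

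Under heme and LPS the genotypes differed in 3 of the 10 genes, where 5.29% of all genes were called, 2.13% of them higher and 3.16% lower in Nrf2-/- cells. Tlr2 and Tlr3 were higher and Tlr4 was lower in Nrf2-/- cells. Tlr2 had 1.78, 1.79, 2.54, 2.76 and 2.65 in Nrf2-/- cells, against 0.69, 1.03 and 0.94 in Nrf2+/+ cells, as log2 ratios. Every Nrf2-/- array was above every Nrf2+/+ array, and the difference was 1.42 ± 0.24 (SE), or 2.67-fold (limma adjusted p = 0.00258). Tlr4, with the values given above, averaged -1.47 ± 0.37 (SD, n = 5) in Nrf2-/- cells and -0.35 ± 0.15 (n = 3) in Nrf2+/+ cells, a log2 difference of -1.13 ± 0.19 (SE, limma adjusted p = 0.00212). The 2 groups did not overlap for Tlr4. Tlr3 averaged 1.08 ± 1.02 (SD, n = 5) in Nrf2-/- cells and -1.57 ± 0.85 (n = 3) in Nrf2+/+ cells, and the difference of 2.65 ± 0.70 (SE, limma adjusted p = 0.042) was lost without Nrf2-/- array a, c, d or e or Nrf2+/+ array b or c, with adjusted p up to 0.175. A fit on these 2 groups alone called none of the 3, with an adjusted p of 0.0753 for Tlr2 and 0.0741 for Tlr4.

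Under LPS alone no receptor gene was called between the genotypes, and none had an unadjusted p under 0.05. Of all genes 1 was called, 0.00445%. Tlr2 had 2.78, 2.61, 1.93 and 2.74 in Nrf2-/- cells under LPS, against 2.31, 2.22 and 1.97 in Nrf2+/+ cells, as log2 ratios, and the ranges overlapped. The difference for Tlr2 was 0.35 with a 95% interval from -0.19 to 0.89, that for Tlr4 was -0.06 with an interval from -0.48 to 0.36, and that for Tlr3 was -0.05 with an interval from -1.62 to 1.53. Tlr1 was lower in every Nrf2-/- array than in every Nrf2+/+ array, by -0.44 ± 0.40 (SE), which did not pass. Cd14 differed by -0.53 ± 0.29, and its arrays overlapped.

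Whether heme acted differently in the genotypes was tested as the heme difference in Nrf2-/- cells minus that in Nrf2+/+ cells. This difference passed for 0 of the 10 genes by limma, beside 0.947% of all genes (0.24% higher and 0.707% lower), and 4 genes had an unadjusted p under 0.05: Tlr2, Tlr3, Tlr4 and Cd14. The Tlr4 value was -1.07 ± 0.27 (SE, limma adjusted p = 0.0981), from heme differences of -0.69 in Nrf2-/- and 0.37 in Nrf2+/+ cells. It passed without array a of Nrf2-/- under heme and LPS (adjusted p = 0.0104) and without array b of Nrf2-/- under LPS (0.0401). The Tlr2 value was 1.07 ± 0.35 (adjusted p = 0.265), from -0.21 in Nrf2-/- and -1.28 in Nrf2+/+ cells. The Cd14 value was 1.10 ± 0.40 (adjusted p = 0.365) and the Tlr3 value 2.70 ± 1.02 (adjusted p = 0.403). With quantile normalization the Tlr2 value was 1.11 ± 0.23 and passed (adjusted p = 0.0317).

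Tlr8 and Tlr9 were called in none of the 7 comparisons, and neither was Tlr5 apart from the fit on 2 groups named above. Tlr9 ranged from -0.51 to 0.08 over the 15 LPS-treated arrays and from -0.16 to -0.06 under albumin. Tlr8 had a median of 0 in both heme groups, being listed at 0 on 3 of the 5 Nrf2-/- arrays and on 2 of the 3 Nrf2+/+ arrays. Tlr5 ran from -3.04 to 0.27 in Nrf2-/- cells under heme and LPS, the widest range among its groups, and lay between -0.98 and -0.78 under albumin.

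The order of the group means differed between the lipoprotein receptors. Tlr6 averaged 0.84 ± 0.54 (SD, n = 5) in Nrf2-/- and 0.99 ± 0.80 (n = 3) in Nrf2+/+ cells under heme and LPS. It averaged 2.20 ± 0.24 (n = 4) in Nrf2-/- and 2.42 ± 0.21 (n = 3) in Nrf2+/+ cells under LPS, and -0.15 ± 0.04 (n = 3) under albumin. Tlr6 was thus ordered by treatment, with genotypes that overlapped within a treatment. Tlr2 averaged 2.30 ± 0.48 (n = 5) in Nrf2-/- and 0.89 ± 0.17 (n = 3) in Nrf2+/+ cells under heme and LPS. It averaged 2.51 ± 0.40 (n = 4) in Nrf2-/- and 2.17 ± 0.18 (n = 3) in Nrf2+/+ cells under LPS, and 0.06 ± 0.04 (n = 3) under albumin. For Tlr2 the Nrf2-/- heme group stood with the LPS groups, whose arrays it overlapped, and apart from the Nrf2+/+ heme group.

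Among all genes of the table, the one whose log2 ratios lay closest to Tlr1 over the 18 arrays was Tlr6, with a root mean square difference of 0.39. The same measure put Tlr1 first for Tlr6, with Birc2 (0.42) next, and Pcgf3 (0.50) second for Tlr1. Tlr1 and Tlr6 are adjacent genes on mouse chromosome 5 with no annotated gene between them in RefSeq (GRCm38.p6), and they are near copies of each other. Each had 1 probe, and how far that probe tells the copies apart was not analysed here, so their likeness is uncertain. For Tlr2 the closest genes were Il20rb (0.27) and Rasip1 (0.28), and for Tlr3 they were Gbp9 (0.57) and Mid1 (0.66). Rasip1 averaged 2.27 ± 0.31 (SD, n = 5) in Nrf2-/- and 1.08 ± 0.15 (n = 3) in Nrf2+/+ cells under heme and LPS. Gbp9, an interferon-induced guanylate-binding protein gene, averaged 0.72 ± 1.40 (n = 5) in Nrf2-/- and -1.30 ± 0.74 (n = 3) in Nrf2+/+ cells under heme and LPS.

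**Figure D3:**
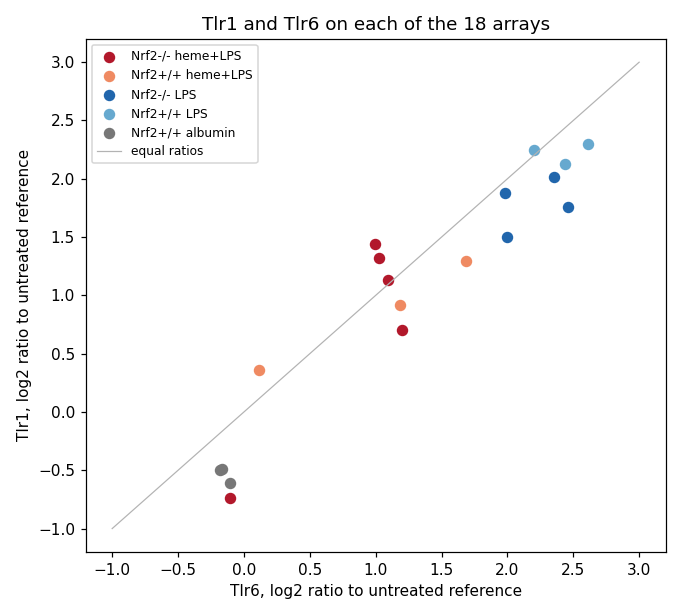
Tlr1 against Tlr6 on each of the 18 arrays (both axes log2 ratio to the untreated reference), coloured by group, with a line of equal ratios. The arrays with LPS alone sit at the top right, array a of Nrf2-/- cells under heme and LPS (Tlr1 -0.73, Tlr6 -0.11) sits with the albumin arrays, and the other heme arrays lie between.

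The receptor genes outside the named set were Tlr11, Tlr12 and Tlr13. Tlr13, the mouse endosomal receptor for bacterial ribosomal RNA, moved opposite to Tlr1, Tlr2, Tlr3 and Tlr6 in Nrf2+/+ cells. Its log2 ratios ranged from -2.87 to -1.97 under LPS, against 0.07 to 0.13 under albumin, a fall by 2.49 ± 0.39 (SE, limma adjusted p = 0.00024). Under heme and LPS they ranged from -0.39 to 0.25 in Nrf2+/+ cells, a rise of 2.38 ± 0.39 over LPS alone (adjusted p = 0.000715). The fall and the rise share the arrays with LPS alone. In Nrf2-/- cells Tlr13 ranged from -3.17 to -1.43 under heme and LPS, against -2.88 to -1.83 under LPS, a difference of 0.26 ± 0.32 that did not pass. Between genotypes under heme and LPS the Tlr13 difference was -2.07 ± 0.35 (adjusted p = 0.00245), while the difference of the heme effects, -2.12 ± 0.51, did not pass (adjusted p = 0.0747). Tlr11 and Tlr12 were listed at 0 on most arrays and were called in none of the comparisons.

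Of the 8 co-receptors and chaperones, LPS raised 2 and lowered 1 in Nrf2+/+ cells, and heme before LPS raised 1 and lowered 2. In both comparisons this is 3 of 8, where 28.6% of all genes were called under LPS against albumin and 14.7% with heme. Cd180, a TLR4-like surface protein, rose by 1.27 ± 0.25 (SE) under LPS against albumin (limma adjusted p = 0.00134). With heme it fell against LPS alone by 1.54 ± 0.20 in Nrf2-/- cells and by 1.66 ± 0.25 in Nrf2+/+ cells (adjusted p of 0.000422 and 0.00034). Ly86, which encodes MD-1, the partner of CD180, fell with heme by 1.32 ± 0.23 in Nrf2-/- cells and by 1.55 ± 0.28 in Nrf2+/+ cells (adjusted p of 0.00296 and 0.00148). Ly96, which encodes MD-2, the partner of TLR4, rose by 0.80 ± 0.26 under LPS (adjusted p = 0.0327) and differed by -0.32 ± 0.26 with heme in Nrf2+/+ cells, which did not pass.

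Cd36, a scavenger receptor that works with TLR2 and TLR6, rose with heme in Nrf2+/+ cells by 1.38 ± 0.19 (SE, limma adjusted p = 0.000143) and was lower in Nrf2-/- than in Nrf2+/+ cells under heme and LPS, by -0.79 ± 0.17 (adjusted p = 0.0108). Cnpy3, a folding chaperone of Toll-like receptors, was lower under LPS than under albumin by -1.06 ± 0.26 (adjusted p = 0.00684). Unc93b1, which carries the nucleic acid receptors to endosomes, was higher in Nrf2-/- than in Nrf2+/+ cells under heme and LPS, by 0.56 ± 0.15 (adjusted p = 0.0483), with arrays that overlapped. Hsp90b1, another chaperone, and Lbp, the LPS-binding protein, passed in no comparison, and Lbp was at 0 on most arrays.

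Of the 15 adaptors and kinases downstream, 12 were measured. LPS raised 7 of them and lowered 1 in Nrf2+/+ cells, with a median difference of 1.03 on the log2 scale, where 12.3% of all genes were called higher and 16.3% lower. The largest rises were those of Irak2 (2.75 ± 0.24, SE), a kinase of the MyD88 complex, and Ikbke (2.36 ± 0.36), a kinase that activates interferon regulatory factors. Tab1, a partner of the kinase TAK1, fell by 2.42 ± 0.14 (limma adjusted p of 1.57e-06, 0.000197 and 4.51e-08 for Irak2, Ikbke and Tab1). Heme before LPS raised 4 and lowered 5 in Nrf2+/+ cells, where 8.34% of all genes were called higher and 6.35% lower. Ticam1, which encodes TRIF, rose by 1.06 ± 0.24 and Traf6, a ubiquitin ligase of the pathway, by 0.81 ± 0.18, while Myd88 fell by 1.39 ± 0.24 and Irak2 by 1.03 ± 0.24 (adjusted p of 0.00672, 0.00745, 0.00116 and 0.00949).

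In Nrf2-/- cells heme raised 2 of the 12 adaptors and kinases and lowered 1, where 6.77% of all genes were called: it raised Ticam1 by 0.84 ± 0.20 (SE) and Tab1 by 0.55 ± 0.11, and lowered Tab2 by -0.64 ± 0.14 (limma adjusted p of 0.0182, 0.00963 and 0.011). Under heme and LPS, Nrf2-/- cells had higher Myd88 (0.91 ± 0.22, adjusted p = 0.0241) and Tirap (0.81 ± 0.16, adjusted p = 0.00716), the bridging adaptor of TLR2 and TLR4, and lower Map3k7 (-0.79 ± 0.14, adjusted p = 0.00304), which encodes TAK1, than Nrf2+/+ cells. Myd88 ran from 0.88 to 2.06 in Nrf2-/- cells under heme and LPS, against 0.46 to 0.79 in Nrf2+/+ cells, as log2 ratios.

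Of the 9 genes on the list called inhibitors of Toll-like receptor signalling, 8 were measured. LPS raised 5 and lowered 2 of them in Nrf2+/+ cells, beside 12.3% higher and 16.3% lower over all genes. Whether each gene on the list, Peli1 included, inhibits this signalling in macrophages was not tested. Tnfaip3, which encodes the ubiquitin-editing enzyme A20, rose by 5.64 ± 0.76 (SE) and Peli1 by 4.52 ± 0.28. Sigirr, an inhibitory receptor, fell by 1.53 ± 0.50 and Rnf216 by 0.61 ± 0.11 (limma adjusted p of 6.35e-05, 7.66e-08, 0.0306 and 0.000779 for these 4 genes). Heme before LPS changed 1 of the 8 in Nrf2+/+ cells, Tank, lower by -1.34 ± 0.37 (adjusted p = 0.0225), and 0 of the 8 in Nrf2-/- cells, where 2 had an unadjusted limma p under 0.05. Over all genes 14.7% were called in Nrf2+/+ and 6.77% in Nrf2-/- cells, and nothing is read from either count. Between the genotypes 0 of the 8 were called under heme and LPS and 0 under LPS, with 1 and 0 genes at an unadjusted p under 0.05. Over all genes 5.29% were called under heme and LPS and 0.00445% under LPS, and nothing is read from these counts.

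**Figure D4:**
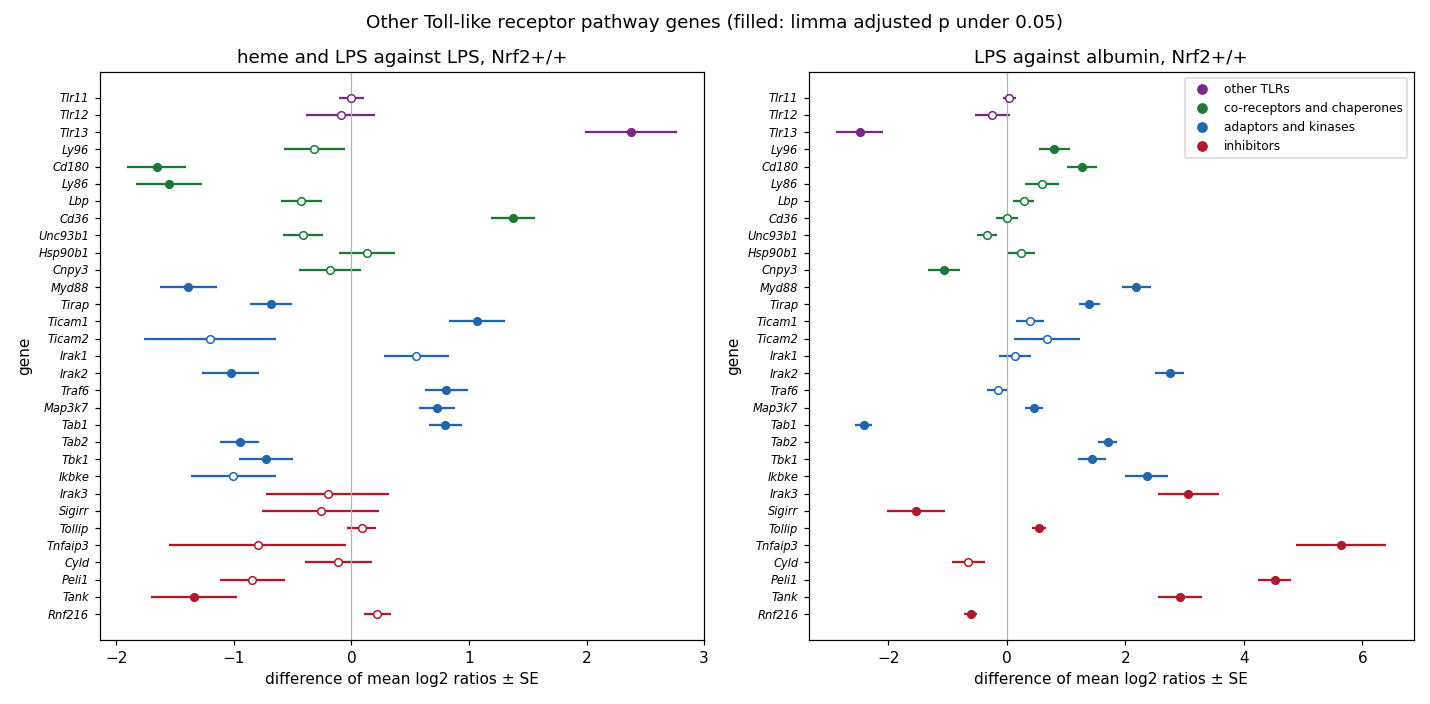
Differences of mean log2 ratios with SE (horizontal axis) of the other Toll-like receptors, the co-receptors and chaperones, the adaptors and kinases and the inhibitors, for heme and LPS against LPS (left) and LPS against albumin (right) in Nrf2+/+ cells; filled points passed an adjusted p of 0.05. Of the genes with filled points in both panels, Tlr13, Cd180, Myd88, Tirap, Irak2, Tab1, Tab2, Tbk1 and Tank lie on opposite sides of 0. Both panels use the same LPS arrays, so their differences are not independent.

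Markers of the macrophages and of other cells that a marrow culture could hold were set beside these results. Of 7 macrophage markers, Adgre1 (0.97 ± 0.12, SE) and Spi1 (1.54 ± 0.23) were higher under LPS than under albumin (limma adjusted p of 3.37e-05 and 0.000187), and Mertk was lower with heme than with LPS alone in Nrf2+/+ cells (-3.08 ± 0.80, adjusted p = 0.0168). Between the genotypes under heme and LPS 0 of the 7 were called, and 2 had an unadjusted p under 0.05. With heme in Nrf2+/+ cells, 1 of 7 neutrophil markers (Elane, 1.08 ± 0.23, adjusted p = 0.00468) rose and 1 of 4 stromal markers (Dcn, -1.06 ± 0.33, adjusted p = 0.0443) fell. The 4 B cell, 4 plasmacytoid dendritic cell, 5 dendritic cell and 5 T and NK cell markers measured held no call there. With heme in Nrf2-/- cells Elane alone of these markers was called (0.98 ± 0.19). Between the genotypes under heme and LPS 0 of the 29 markers of other cells were called, and 1 had an unadjusted p under 0.05. Under LPS against albumin Ngp, Ncr1, Nkg7, Zbtb46, Dcn and Pdgfrb were called higher and Cd79b, Cox6a2 and Elane lower. Over all genes 28.6% were called under LPS against albumin and 5.29% between the genotypes under heme and LPS. With heme against LPS alone 14.7% were called in Nrf2+/+ and 6.77% in Nrf2-/- cells. Nothing is read from the counts of called markers. Ms4a1, a defining B cell marker, was at exactly 0 on every array. The log2 ratios of each marker list were added up as group means. The 4 stromal markers came to 4.10 in Nrf2-/- and 1.34 in Nrf2+/+ cells under heme and LPS, 3.58 in Nrf2-/- and 3.02 in Nrf2+/+ cells under LPS, and 0.23 under albumin. Pdgfrb, the highest of the 4 in each group that had LPS, averaged 3.98 ± 2.02 (SD, n = 5) in Nrf2-/- and 2.01 ± 1.79 (n = 3) in Nrf2+/+ cells under heme and LPS, 3.16 ± 1.61 (n = 4) in Nrf2-/- and 3.92 ± 1.49 (n = 3) in Nrf2+/+ cells under LPS, and 0.02 ± 0.04 (n = 3) under albumin. The stromal sum, like Tlr2, was lower in Nrf2+/+ cells under heme and LPS than in the other 3 groups that had LPS. Pdgfrb was listed at exactly 0 on 1 of these 3 Nrf2+/+ arrays under heme and LPS. Col1a1 averaged -1.61 in Nrf2+/+ cells under LPS, with its lowest array at -5.15. Between the genotypes under heme and LPS 0 of the 4 stromal markers had an unadjusted limma p under 0.05. The 7 neutrophil markers came to 4.18 in Nrf2-/- and 4.56 in Nrf2+/+ cells under heme and LPS, 1.58 in Nrf2-/- and 2.89 in Nrf2+/+ cells under LPS, and -0.95 under albumin. Their medians were 0.30 in Nrf2-/- and 0.42 in Nrf2+/+ cells under heme and LPS, 0.05 in Nrf2-/- and 0.35 in Nrf2+/+ cells under LPS, and -0.31 under albumin. Over the 5 groups the B cell sums ran from -1.34 to 0.13, the plasmacytoid dendritic cell sums from 0.14 to 0.98, the dendritic cell sums from 0.58 to 1.73 and the T and NK cell sums from -1.41 to 0.98. The part of these cells in the receptor results was not tested.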

How the data were processed

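RNA of 18 macrophage samples was hybridised to 2-colour Agilent arrays, each sample in Cy5 against an untreated reference in Cy3, per the labels. The authors deposited 1 value per feature and array for 44397 features, made with Agilent Feature Extraction 10.5.1.1 per the submitters' processing notes. The deposited values are taken as log10 ratios of sample over reference: their scale is not stated in the labels and was inferred from their form and range (-2.15 to 3.59). Neither background nor dye correction is stated in the labels. The design text calls the replicates of a condition independent biological ones.

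Values were multiplied by 3.32 to give log2 ratios, and probes that share a gene symbol were averaged, which gave 22485 genes, 486 of them at exactly 0 on every array. The platform annotation gave 1 symbol for 33026 features and none for 11371; 32438 probes matched a RefSeq gene table by gene ID and 0 symbols changed. Group means of the 5 groups were fitted over all 18 arrays with limma 3.58.1 (lmFit, eBayes) in R 4.3.3. P-values were two-sided and adjusted over all genes (Benjamini-Hochberg), with calls at adjusted p under 0.05, in 7 comparisons. The fit was tested on simulated data. The number of arrays limits the precision. Tables and figures used Python 3.11.15, pandas 2.3.3 and matplotlib 3.10.9.

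The members, the gene lists and the motifs were chosen with earlier results of these data known, so no list was tested. Named genes are the 10 members, for members called in at least 3 comparisons the 2 genes with the smallest root mean square difference, the other Toll-like receptors and co-receptors, of the other pathway lists up to 2 called genes with the largest rise and fall per comparison, cell markers, and Nfe2l2. Irak4, Traf3, Ripk1 and Il1rl1 were on the pathway lists and not measured here. Alternatives were array centring, quantile normalization, exact 0 as missing, 1 probe per gene, a filter for genes not at 0 on at least 9 arrays, the replicate letter as a block, a fit on the compared groups only, and leaving out each array or all LPS-treated arrays lettered a.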

Additional observations from a re-analysis of the deposited data

Results flagged for a closer look

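In groups of 4 or 5 arrays the lowest or highest array was set against the others by its gap to the nearest array, divided by the range of the group. Of 20 groups tested, 2 held an array past the 95% critical value, where chance gives about 1 in 20. Tlr6 was at -0.109 in array a of Nrf2-/- cells under heme and LPS, while the next array of the group was at 0.993, so the gap took 0.844 of the range. That array had 48.8% of its features at exactly 0. Tlr4 was at -1.23 in array b of Nrf2-/- cells under LPS, while the next array was at -0.679, a gap of 0.856 of the range. That array had 34.5% of its features at 0. The part of these zeros in the values was not tested.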

How the results depend on the processing

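The 70 differences (10 genes, 7 comparisons) were recomputed under 1122 alternatives, of which 1003 kept direction and side of the threshold; 55 lost a call, 12 gained one and 52 turned the direction, all 52 of differences that had not passed. Of the 21 called differences 8 kept the call under every alternative. Quantile normalization gave 3 called genes for heme and LPS against LPS in Nrf2+/+ cells, 2 in Nrf2-/- cells, and 1 for the difference of the heme effects (Tlr2, 1.11, limma adjusted p = 0.0317). A fit on the compared groups only gave 2 called genes for heme and LPS against LPS in Nrf2+/+ cells and 1 in Nrf2-/- cells. It gave 0 between the genotypes under heme and LPS, and 4 for heme and LPS against albumin. There it gained Tlr5, a call that rests on heme arrays listed at exactly 0. With 1 array left out, the called genes numbered 3 to 5 for heme and LPS against LPS in Nrf2+/+ cells, 1 to 4 in Nrf2-/- cells, 0 to 1 for the difference of the heme effects, and 2 to 5 for heme and LPS against albumin. The cause was not tested.

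Directions turned as follows. For LPS against albumin, Tlr8 was 0.0752 with centred arrays, 0.0032 with quantile normalization and 0.0613 both with exact 0 as missing and without the LPS-treated arrays lettered a, and Tlr7 was -0.20 with 1 probe. For heme and LPS against LPS in Nrf2+/+ cells, Cd14 was 0.13 with quantile normalization and 0.0041 without arrays a. In Nrf2-/- cells Tlr2 was 0.11 with quantile normalization and 0.0106 without arrays a, and Tlr9 was -0.0085 with centred arrays. For the difference of the heme effects Tlr6 was -0.0816 and Tlr9 0.0156 with quantile normalization, and Tlr6 was -0.149 and Tlr9 0.0152 without arrays a. Between genotypes, without arrays a, Tlr7 was -0.12 and Tlr3 0.21 under LPS and Tlr1 was 0.0409 under heme and LPS.

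With 1 array left out, Tlr7 ranged from -0.0673 to 0.164 and Tlr8 from -0.11 to 0.12 for LPS against albumin, and Tlr9 from -0.049 to 0.146 for heme and LPS against LPS in Nrf2+/+ cells. In Nrf2-/- cells Tlr5 ranged from -0.49 to 0.35 and Tlr8 from -0.169 to 0.304. For the difference of the heme effects Tlr6 ranged from -0.37 to 0.41 and Tlr9 from -0.11 to 0.0845. Under LPS between genotypes Tlr3 ranged from -0.54 to 0.70, Tlr4 from -0.124 to 0.0913 and Tlr7 from -0.13 to 0.10, and under heme and LPS Tlr1 from -0.34 to 0.29 and Tlr6 from -0.59 to 0.19.

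Replicate letters were not taken as pairs in the main fit. Same-letter arrays of albumin and LPS-treated groups had deviations that correlated at -0.02 to 0.02 (12 pairs). Same-letter arrays of LPS-treated groups correlated at 0.01 to 0.59 (median 0.23, 14 of 19 pairs over 0.1). Arrays of different letters, over all groups, had a median of -0.01, with 13 of 97 pairs over 0.1. Of 18 arrays, 6 correlated best with their own letter. The LPS-treated arrays lettered a each correlated best with another array a (0.53 to 0.59), so letters were partly shared structure among LPS-treated groups. With the letter as a replicate block the 7 comparisons had 5, 5, 3, 0, 0, 3 and 5 called genes, the numbers without it. For heme and LPS against LPS in Nrf2-/- cells the replicate block put Cd14 past the threshold (limma adjusted p = 0.0371) and Tlr4 outside it (0.051), and Tlr8 was -0.17. With the replicate block Tlr6 was -0.022 for the difference of the heme effects, and under LPS between genotypes Tlr5 was 0.10 and Tlr7 -0.0474. Centring moved the median difference of all genes by at most 0.08.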
